A study of Mus musculus with 79 samples.

Results

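The RNA of 41 genes of the DNA replication machinery was followed through the tail region of mouse embryos, whose neuro-mesodermal progenitors give rise to spinal cord and paraxial mesoderm. The genes were picked by symbol, as a list of known replication factors, from 23983 gene symbols, a rule that uses no measured value. All 41 were found in each of the 3 expression tables. They fall into 8 roles: origin licensing (5 genes), the MCM helicase (6), helicase activation (6), DNA polymerases and primase (9), the sliding clamp and its loader (6), single-strand binding (3), Okazaki fragment joining (2) and nucleotide supply (4).

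Replication starts when the origin recognition complex, Cdc6 and Cdt1 load the ring-shaped MCM helicase onto DNA in G1. Cdc45 and the GINS complex then switch the helicase on at the start of S phase, and primase, the polymerases, the clamp and the ligase copy both strands. Many of these genes are switched on together at the G1/S boundary by E2F factors, so their RNA is often read as a sign of cycling. Progenitors of the mouse embryo at this age are known to divide fast. The genes of mitosis peak later in the cycle and are listed separately below.

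Embryos came from embryonic stem cells by tetraploid complementation, which builds the body of the embryo from the injected cells. Caudal ends were pooled, dissociated with trypsin and sorted for T (Brachyury, the mesodermal factor), Sox2 (the neural factor) or Tbx6 (a factor of presomitic mesoderm). The first table holds T+ Sox2+, T+ and Sox2+ cells of wild-type (WT) embryos of strain C57BL/6N at Theiler stage 12 (TS12), a stage at which the trunk is forming. The second holds T+ cells of T2J/2J embryos (T KO, strain C57BL/6J) and of WT embryos (C57BL/6N) at TS12 and TS13. It also holds a pair of Tbx6+ libraries of TS14, both C57BL/6J, whose titles and source names contradict each other on which is the Tbx6 knockout, so they are named by their titles. The third holds 53 single cells sorted as T+ Sox2+ from WT embryos (C57BL/6N) at TS13, of 55 capture sites in which cells were seen. Every bulk group is 1 library of pooled embryos. Bulk differences therefore have no replicate error, and in bulk RNA fewer cells of a type and less RNA per cell cannot be told apart.

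Expression is given as FPKM, the fragments of a gene scaled by transcript length and by the size of the library, so that levels can be compared between genes per length. Estimated depth was 20800000 to 43500000 fragments per bulk library. A transcript of 1 kb at the median level of the replication genes then rests on 768 to 2210 fragments, with a counting error of 2.13% to 3.61%. The depth of the single cells is unknown. T RNA stood at 4.61 FPKM in T KO and 69.8 FPKM in WT cells at TS12, and at 3.32 FPKM in T KO and 76.4 FPKM in WT cells at TS13. Of the Tbx6+ pair, the titled KO library had 10.2 FPKM of Tbx6 RNA, and the titled WT library 31.5 FPKM. In the sorted fractions Sox2 was 16.4 FPKM in T+ Sox2+, 2.82 FPKM in T+ and 50.5 FPKM in Sox2+ cells. T was 341 FPKM in T+ Sox2+, 141 FPKM in T+ and 192 FPKM in Sox2+ cells, so the Sox2+ fraction held more T RNA than the T+ fraction. The T+ fraction also held 12010 FPKM of 6 red cell genes, against 112 FPKM in T+ Sox2+ and 230 FPKM in Sox2+ cells. The WT library of T+ cells at TS12 stood apart with 20556 genes above 0, where the other 8 bulk libraries had 15217 to 15941.

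Promoters of the group were read from RefSeq (build GRCm38.p6, 250 bases before to 50 after the listed start) to see what the genes share beyond their role. A promoter was matched for 34 of the 41 genes, and Gins1, Gins2, Gins4, Mcm4, Prim2, Pole and Rfc2 were not matched. Fen1, Lig1, Mcm7, Orc2 and Pold2 had more than 1 listed start. A gene was counted where any of its windows held a motif. An E2F motif was searched on both strands as TTTGGCGC, TTTCCCGC, TTTGCCGC or TTTCGCGC, letters that can overlap where 2 of them run in opposite directions. It was found for 14 of the 34 genes (41.2%). The share was 3.29% of 18157 genes in all and 5.35% of the 6692 genes that reached 5 FPKM in a sorted fraction. The promoters of Cdc6 and Cdt1 are shown because these genes differed most between the T+ Sox2+ and Sox2+ fractions, and those of Mcm5 and Mcm6 as examples of the 5 that hold more than 1 match. Capitals mark the E2F matches. Cdc6 (chr11:98907901-98908200, + strand) has its match beginning 138 bases before the start, and Cdt1 (chr8:122567765-122568064, + strand) has it 32 bases after. Mcm5 (chr8:75109259-75109558, + strand) has an overlapping pair beginning 153 and 149 bases before the start. Mcm6 (chr1:128359656-128359955, - strand) has such a pair at 110 and 106 bases and a single match at 47 bases before it.
Cdc6: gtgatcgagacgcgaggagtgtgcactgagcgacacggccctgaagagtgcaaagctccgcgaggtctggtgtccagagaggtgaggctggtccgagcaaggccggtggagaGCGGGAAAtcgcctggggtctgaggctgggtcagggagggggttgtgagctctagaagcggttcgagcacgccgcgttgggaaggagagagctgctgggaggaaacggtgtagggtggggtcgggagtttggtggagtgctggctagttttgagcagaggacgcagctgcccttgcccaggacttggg
Cdt1: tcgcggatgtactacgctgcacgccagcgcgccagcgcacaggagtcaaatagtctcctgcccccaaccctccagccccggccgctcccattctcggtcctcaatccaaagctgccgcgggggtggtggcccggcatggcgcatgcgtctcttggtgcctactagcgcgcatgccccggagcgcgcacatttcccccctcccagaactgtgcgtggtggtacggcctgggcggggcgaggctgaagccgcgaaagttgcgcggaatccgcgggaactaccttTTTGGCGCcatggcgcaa
Mcm5: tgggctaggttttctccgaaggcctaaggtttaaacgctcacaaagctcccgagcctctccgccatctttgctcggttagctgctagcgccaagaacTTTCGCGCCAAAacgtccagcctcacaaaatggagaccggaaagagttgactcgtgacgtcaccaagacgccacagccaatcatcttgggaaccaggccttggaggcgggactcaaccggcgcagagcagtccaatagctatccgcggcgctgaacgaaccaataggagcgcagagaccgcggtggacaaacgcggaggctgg
Mcm6: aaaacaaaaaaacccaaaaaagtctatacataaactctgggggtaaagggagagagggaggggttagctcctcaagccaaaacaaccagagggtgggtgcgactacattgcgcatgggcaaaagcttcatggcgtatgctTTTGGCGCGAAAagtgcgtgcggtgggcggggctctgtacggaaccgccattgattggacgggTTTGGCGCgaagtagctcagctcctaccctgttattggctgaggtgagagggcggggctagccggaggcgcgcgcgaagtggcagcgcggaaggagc

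Mcm3, Mcm7 and Rfc3 had 2 matches each, and Orc1, Gins3, Pola1, Pold1, Pold3, Pole2 and Lig1 had 1. CCAAT, the NF-Y box, was found for 22 of the 34 genes with a promoter (64.7%) and for 42.1% of all genes. GGGCGG, the Sp1 box, was in 25 (73.5%), against 49.4% of all genes and 73.1% of those that reached 5 FPKM. The cell cycle homology region of mitotic promoters, searched as TTTGAA or TTCGAA, was found for 7 of the 34 (20.6%) and for 19.4% of all genes. The 31 mitosis genes showed the reverse: of the 27 with a promoter, 21 held that element (77.8%) and 1 held an E2F match (3.7%). Such matches describe the letters in these windows only.

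All 41 genes were at 5 FPKM or more in each of the 9 bulk libraries, so the filter used below (5 FPKM or more in either library of a comparison) removed none. Pcna, the sliding clamp that holds polymerases on DNA, was the highest in every library, with 287 to 413 FPKM in the sorted fractions and 397 to 539 FPKM in the second table. Rrm2, the regulated subunit of ribonucleotide reductase, came second in the 3 sorted fractions. Mcm7 was the highest of the 6 helicase subunits in all 9 libraries, although the helicase carries 1 copy of each. In the sorted fractions Mcm7 was 1.8 to 2.07 times Mcm5, the lowest of the 6 there. Gins3, a subunit of the GINS complex, was the lowest of the 41 in 7 of the 9 libraries, with 7.5 FPKM in T+ Sox2+, 10.5 FPKM in T+ and 9.33 FPKM in Sox2+ cells.

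The sorted fractions ask whether cells with both factors differ from cells with one. Nearly all replication genes were lower in T+ Sox2+ cells when set against the Sox2+ fraction, and close to their level in T+ cells. Their median level was 33 FPKM in T+ Sox2+, 34.6 FPKM in T+ and 45.9 FPKM in Sox2+ cells, and their sum was 2153, 2257 and 2745 FPKM in the same order. The Sox2+ fraction was the highest of the 3 for 35 of the 41 genes, where it was highest for 35.9% of 8740 genes in all. The T+ Sox2+ fraction was the lowest for 29 of the 41, against 32.6% of all genes. These 3 comparisons share libraries, so they are not independent of each other, and the pattern rests on 1 Sox2+ library.

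**Figure D1:**
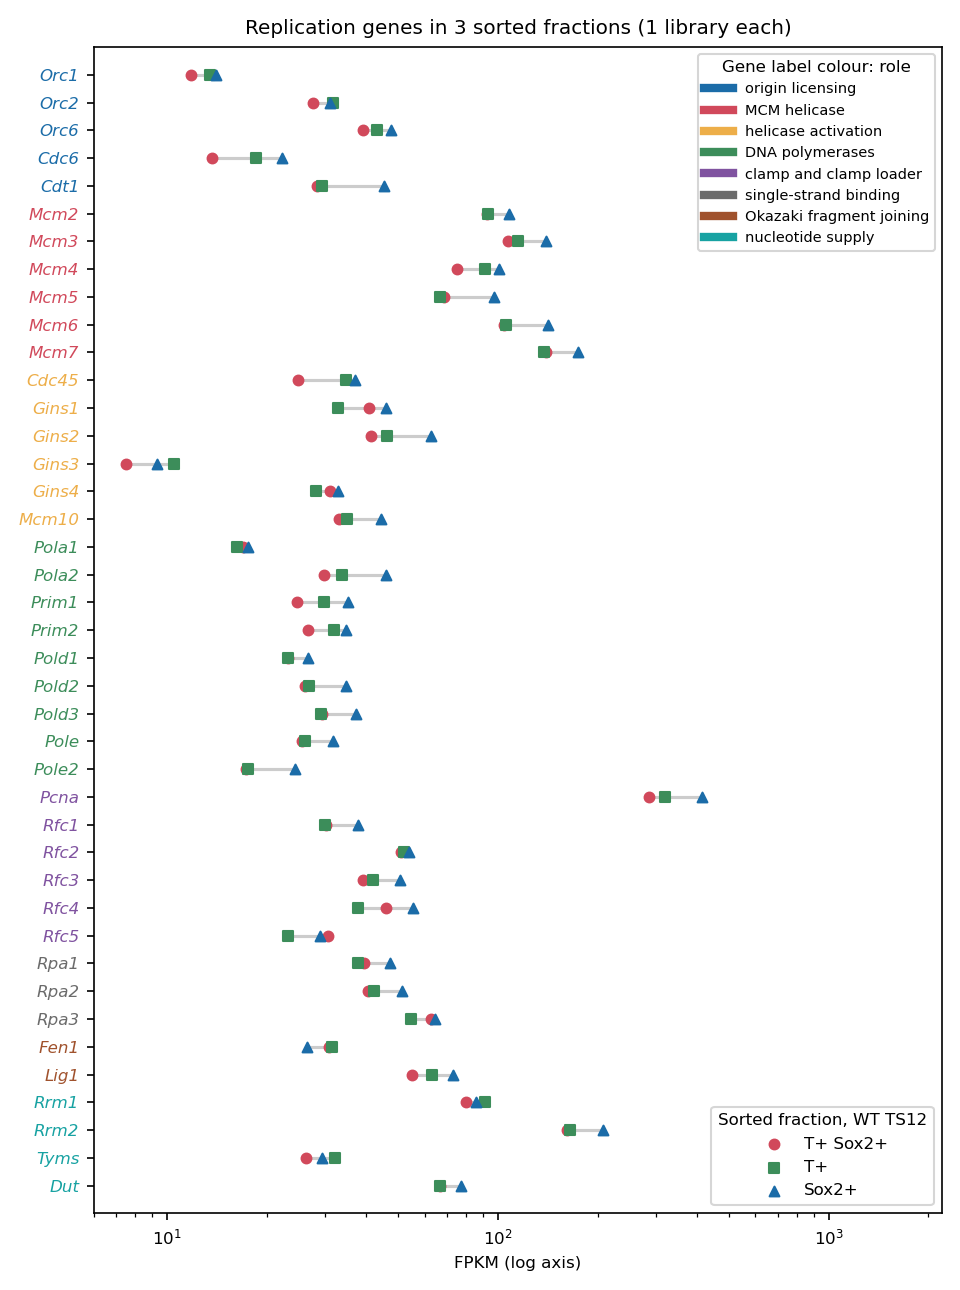
FPKM (log axis) of the 41 replication genes in the T+ Sox2+ (circles), T+ (squares) and Sox2+ (triangles) fractions of WT TS12 embryos, 1 library each. Gene names are coloured by role, grey lines span the 3 values, and the Sox2+ triangle lies farthest right for 35 of the 41 genes.

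Differences are given as log2(FPKM + 1), T+ Sox2+ minus Sox2+, which understates the change of low genes. The median over the 41 genes was -0.32 (a ratio of 0.799), against -0.02 over the 8499 genes compared. Of the 41 genes 39 lay below 0, as did 52.6% of all genes compared. A difference of at least 1.5-fold downward was reached by 4 of the 41 genes, against 4.29% of all genes, and upward by 0, against 3.99%. The 4 became 2 with upper-quartile scaling and 0 with a pseudocount of 5. The shift was thus spread over many genes, each by less than 1.5-fold in 37 of 41 cases. The members nearest the 1.5-fold line on either side were Gins2 at -0.60 and Cdc45 at -0.56.

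Among the licensing genes all 5 were below 0. Cdc6, the ATPase that loads the helicase (gene at chr11:98907709-98923942 in GRCm38.p6, the build of all positions given here), had 13.7 FPKM in T+ Sox2+, 18.6 FPKM in T+ and 22.3 FPKM in Sox2+ cells, a log2 difference of -0.67 between the first and the last. It was lowest in T+ Sox2+ cells, with T+ cells in between. Cdt1, its partner in loading (chr8:122568015-122573130), had 28.4 FPKM in T+ Sox2+, 29.3 FPKM in T+ and 45.1 FPKM in Sox2+ cells (-0.65), so only the Sox2+ fraction stood out for it. Orc1, Orc2 and Orc6, subunits of the origin recognition complex, lay between -0.28 and -0.16.

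All 6 MCM helicase genes were below 0, from -0.50 to -0.22. Mcm5 had 68.6 FPKM in T+ Sox2+, 66.7 FPKM in T+ and 97.2 FPKM in Sox2+ cells. All 6 helicase activation genes were below 0 as well, with Gins2, a GINS subunit (chr8:120581266-120589075), at 41.2 FPKM in T+ Sox2+, 46.1 FPKM in T+ and 62.9 FPKM in Sox2+ cells (-0.60). Cdc45, which joins GINS on the helicase, had 24.8 FPKM in T+ Sox2+, 34.6 FPKM in T+ and 37 FPKM in Sox2+ cells. For Cdc45 the T+ Sox2+ fraction was the one that stood apart.

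The 9 polymerase and primase genes were all below 0, from -0.61 to -0.04. Pola2, the second subunit of the priming polymerase (chr19:5940543-5964238), had 29.8 FPKM in T+ Sox2+, 33.8 FPKM in T+ and 45.9 FPKM in Sox2+ cells (-0.61). Its catalytic partner Pola1 was at -0.04, with 17 FPKM in T+ Sox2+, 16.2 FPKM in T+ and 17.5 FPKM in Sox2+ cells, so subunits of 1 enzyme had unequal differences. Pcna had 287 FPKM in T+ Sox2+, 320 FPKM in T+ and 413 FPKM in Sox2+ cells (-0.52). Rfc4, a subunit of the clamp loader, had 46 FPKM in T+ Sox2+, 37.7 FPKM in T+ and 55.4 FPKM in Sox2+ cells, and T+ cells were the low ones. The single-strand binding genes Rpa1, Rpa2 and Rpa3 lay between -0.33 and -0.04. Rpa3 had 62.7 FPKM in T+ Sox2+, 54.6 FPKM in T+ and 64.4 FPKM in Sox2+ cells, with T+ cells lowest. The nucleotide supply genes Rrm1, Rrm2, Tyms and Dut lay between -0.36 and -0.10. Rrm2 had 162 FPKM in T+ Sox2+, 165 FPKM in T+ and 207 FPKM in Sox2+ cells.

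Fen1 and Rfc5 were the 2 exceptions above 0. Fen1, the nuclease that trims Okazaki fragments (chr19:10199132-10204393), had 30.9 FPKM in T+ Sox2+, 31.5 FPKM in T+ and 26.4 FPKM in Sox2+ cells (0.22), and was the 1 gene lowest in Sox2+ cells. Rfc5, another clamp loader subunit, had 30.6 FPKM in T+ Sox2+, 23.2 FPKM in T+ and 28.9 FPKM in Sox2+ cells (0.08). Lig1, the ligase that acts after Fen1, did not follow it: it had 55.1 FPKM in T+ Sox2+, 63.2 FPKM in T+ and 73.3 FPKM in Sox2+ cells (-0.41).

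Between T+ Sox2+ and T+ cells the 41 genes had a median difference of -0.04, against -0.02 over 8507 genes, and this median was 0.02 when libraries were scaled to the same upper quartile. Below 0 lay 30 of the 41, against 53% of all genes, and 19 of the 41 with that scaling. None of the 41 was 1.5-fold higher (3.91% of all genes) or lower (3.96%), and the genes ran from Cdc45 at -0.47 to Rfc5 at 0.39. The 5 licensing genes ran from Cdc6 at -0.42 to Cdt1 at -0.04 here. Between T+ and Sox2+ cells the median was -0.26, against 0.01 over 8606 genes, and 36 of the 41 lay below 0, against 49.2%. Cdt1 (-0.60) was the 1 gene at least 1.5-fold lower in T+ cells, against 6.7% of all genes, and 0 were higher, against 6.61%.

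Further genes of the same process lay on the same side of 0 in T+ Sox2+ against Sox2+ cells. Of 36 further replication genes 33 could be compared, and 28 of them lay below 0, with a median of -0.21. Dctpp1, a dCTP pyrophosphatase, was the farthest at -0.76, with 61.8 FPKM in T+ Sox2+, 80.1 FPKM in T+ and 106 FPKM in Sox2+ cells. All 10 genes of replication-coupled chromatin assembly were below 0, with a median of -0.23 and with Chaf1b, a subunit of chromatin assembly factor 1, at -0.59. Of 17 regulators of the G1/S step, a list that holds both activators and repressors, 14 lay below 0. The farthest 3 were Rb1, which restrains that step by repressing E2F, at -0.89, and the activators Ccne1 (cyclin E1) at -0.64 and E2f1 at -0.63. Rb1 had 4.88 FPKM in T+ Sox2+ and 9.94 FPKM in Sox2+ cells. It reached 5 FPKM only in the Sox2+ library of this pair, so the filter fixed its sign. E2f1, an activator of these promoters, had 9.61 FPKM in T+ Sox2+, 10.2 FPKM in T+ and 15.4 FPKM in Sox2+ cells.

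Mitosis genes lay on the other side of 0 in the same libraries. Of 30 compared, 27 were higher in T+ Sox2+ cells, and the median difference was 0.20 where the replication genes had -0.32. Top2a, the topoisomerase of chromosome condensation, had 136 FPKM in T+ Sox2+, 111 FPKM in T+ and 90.3 FPKM in Sox2+ cells (0.59). Ccnb1, cyclin B1, had 138 FPKM in T+ Sox2+, 105 FPKM in T+ and 94.2 FPKM in Sox2+ cells (0.54). The order of the fractions for both was thus the reverse of that of Pcna. Replication genes with an E2F match had a median of -0.38 (14 genes) and those without one -0.27 (20 genes). The same medians were -0.27 and -0.26 in T+ against Sox2+ cells, and -0.03 and -0.05 in T+ Sox2+ against T+ cells.

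Marker levels moved with the fractions. The 6 presomitic mesoderm genes summed to 452 FPKM in T+ Sox2+, 420 FPKM in T+ and 99.6 FPKM in Sox2+ cells, with 6, 6 and 5 of them at 1 FPKM or more. Neural progenitor genes summed to 34.6 FPKM in T+ Sox2+ (5 of 6 at 1 FPKM or more), 8.36 FPKM in T+ (3 of 6) and 136 FPKM in Sox2+ cells (6 of 6). Red cell genes summed to 112 FPKM in T+ Sox2+, 12010 FPKM in T+ and 230 FPKM in Sox2+ cells. Lateral mesoderm genes summed to 9.92, 90.6 and 2.56 FPKM in the same order, and axial progenitor genes to 775, 219 and 544 FPKM. The part of cell makeup in the replication genes' difference was not tested.

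**Figure D2:**
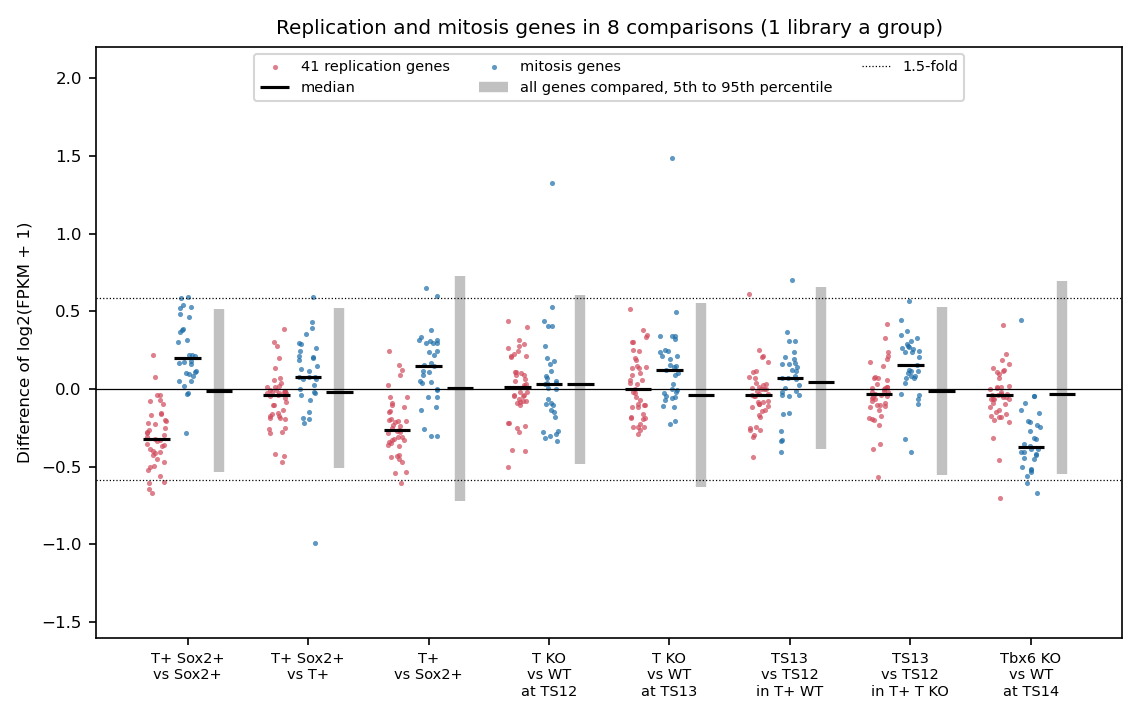
Difference of log2(FPKM + 1) for the 41 replication genes (left points in each column), the mitosis genes (right points) and all genes compared (bar from the 5th to the 95th percentile), with medians as black lines, in 8 comparisons of 1 library each. In T+ Sox2+ against Sox2+ cells the replication genes centre on -0.32 and the mitosis genes on 0.20.

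The T knockout asks how cells sorted as T+ differ when T is mutated. Replication genes stood at much the same level in T KO and WT cells at both stages. Their median difference, T KO minus WT, was 0.01 at TS12 (0.03 over 8097 genes) and -0.00 at TS13 (-0.04 over 8186 genes). Below 0 lay 20 of the 41 at TS12, against 45.5% of all genes, and 21 at TS13, against 55.4%. None was 1.5-fold higher (5.45% of all genes at TS12, 4.46% at TS13) or lower (3.27% at TS12, 6.11% at TS13). The genes ran from Fen1 at -0.50 to Cdt1 at 0.44 at TS12, and from Rrm2 at -0.29 to Lig1 at 0.52 at TS13. Upper-quartile scaling moved the median of all genes at TS12 to -0.57, and that of the 41 genes to -0.60. Strain and genotype cannot be told apart in these libraries, since T KO cells were C57BL/6J and WT cells C57BL/6N.

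Over both stages limma, a linear model with genotype and stage as terms fitted to log2(FPKM + 1) of 8438 genes in 4 libraries, called 39 genes higher in T KO (0.462%) and 53 lower (0.628%) at an adjusted p under 0.05. Of the 41 replication genes it called 0, and 3 had an unadjusted p under 0.05, as did 12.2% of all genes, so the members' share was no higher than the background. No alternative setting of limma called any of the 41 either, with 0 to 5 of them at an unadjusted p under 0.05. The fit has 1 residual degree of freedom, so its error is borrowed almost wholly from the other genes. Lig1 had the lowest p: a log2 difference of 0.46 (SE 0.15) and an adjusted p of 0.223 by limma, which ranged from 0.0717 to 0.904 over the alternatives.

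The same sign at both stages was seen for 24 of the 41 genes (58.5%), close to the 59.1% of 7845 genes in all. A difference of at least 0.2 on the log2 scale, the same way at both stages, was seen for 7 of them, against 19.5% of all genes. Lig1 had 51 FPKM in T KO and 38.4 FPKM in WT cells at TS12, and 50.2 FPKM in T KO and 34.8 FPKM in WT cells at TS13. Cdt1 had 28.2 FPKM in T KO and 20.5 FPKM in WT cells at TS12, and 26.4 FPKM in T KO and 20.1 FPKM in WT cells at TS13. For both genes the T KO libraries lay above both WT libraries, as for 10 of the 41 in all, against 21% of 8438 genes. Pole, the leading-strand polymerase, and Mcm10, a helicase activation factor, were higher in T KO cells at both stages as well (0.29 and 0.27 at TS12, 0.33 and 0.24 at TS13).

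Fen1 went the other way: it had 44.9 FPKM in T KO and 64.1 FPKM in WT cells at TS12, and 47.3 FPKM in T KO and 56.3 FPKM in WT cells at TS13. Pcna had 457 FPKM in T KO and 539 FPKM in WT cells at TS12, and 461 FPKM in T KO and 523 FPKM in WT cells at TS13. Both genes were lower in each T KO library than in either WT library, as were 7 of the 41 in all, against 21.9% of 8438 genes. Rfc2, a clamp loader subunit, was at -0.40 and -0.24, and Orc2 at -0.22 at both stages. In the limma fit Cdt1 stood at 0.41 (SE 0.145, adjusted p 0.273) and Fen1 at -0.38 (SE 0.15, adjusted p 0.355), so neither passed. Over the alternatives the adjusted p of limma ran from 0.174 to 0.924 for Cdt1 and from 0.215 to 0.919 for Fen1.

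Other members chosen for their size elsewhere were close to level. Cdc6 had 22.8 FPKM in T KO and 22.6 FPKM in WT cells at TS12, and 20.7 FPKM in T KO and 22.5 FPKM in WT cells at TS13. Mcm5 had 108 FPKM in T KO and 111 FPKM in WT cells at TS12, and 108 FPKM in T KO and 104 FPKM in WT cells at TS13. Gins2 had 68.8 FPKM in T KO and 64.6 FPKM in WT cells at TS12, and 60.3 FPKM in T KO and 64.9 FPKM in WT cells at TS13. The groups overlapped for all 3 genes.

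Pola2 had 25.4 FPKM in T KO and 21.5 FPKM in WT cells at TS12, and 25.5 FPKM in T KO and 24.9 FPKM in WT cells at TS13. Gins3 had 8.28 FPKM in T KO and 11.2 FPKM in WT cells at TS12, and 9.94 FPKM in T KO and 11.5 FPKM in WT cells at TS13. Rfc4 had 51.2 FPKM in T KO and 51.9 FPKM in WT cells at TS12, and 49.1 FPKM in T KO and 46.1 FPKM in WT cells at TS13. The groups overlapped for Rfc4 but not for Pola2 and Gins3. Rrm2 had 170 FPKM in T KO and 173 FPKM in WT cells at TS12, and 133 FPKM in T KO and 163 FPKM in WT cells at TS13, the T KO library of TS13 being the low one.

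**Figure D3:**
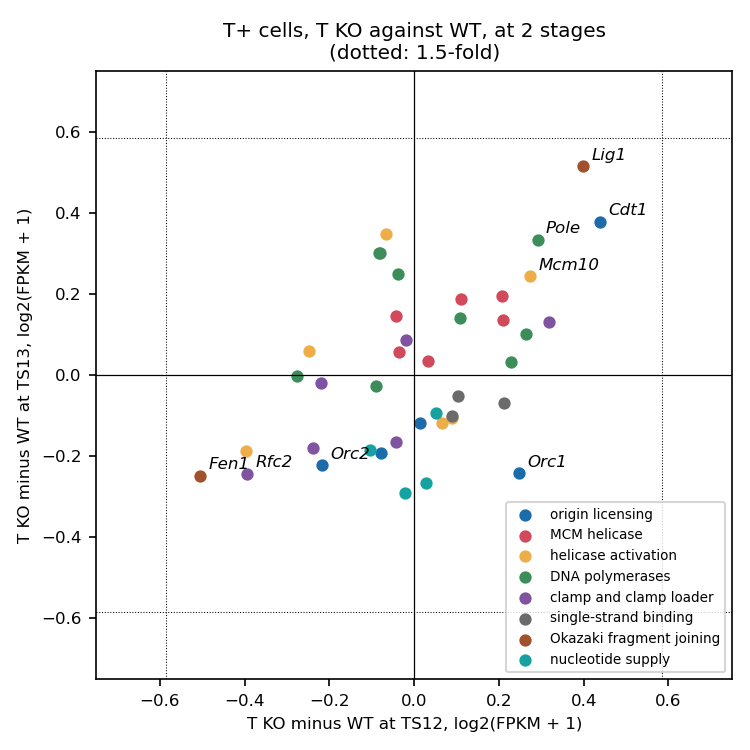
Difference of log2(FPKM + 1), T KO minus WT T+ cells, of the 41 replication genes at TS12 (horizontal) and TS13 (vertical), coloured by role, with dotted lines at 1.5-fold. Lig1, Cdt1, Pole and Mcm10 lie upper right, Fen1, Rfc2 and Orc2 lower left, Orc1 lower right, and no gene passes a dotted line.

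For T KO against WT, limma called 0 of 34 further replication genes (0 at an unadjusted p under 0.05), 0 of 10 chromatin assembly genes (0) and 0 of 17 G1/S regulators (2). Of 31 mitosis genes it called 1, Cdc25b, a phosphatase that opens mitosis, which rose in T KO by 1.41 on the log2 scale (SE 0.22, adjusted p 0.0155). Cdc25b had 8.02 FPKM in T KO and 2.59 FPKM in WT cells at TS12, and 10.3 FPKM in T KO and 3.04 FPKM in WT cells at TS13. It thus passed the filter of 5 FPKM only through the T KO libraries, where it was high. With a minimum of 20 FPKM it was not tested. With genotype as the only term its adjusted p by limma was 0.11, and with upper-quartile scaling 0.21. Without any 1 of the 4 libraries, in fits with genotype as the only term, its log2 difference was 1.24 to 1.57. In the fit with genotype and stage, 5 of 5 presomitic mesoderm markers tested were called lower in T KO. Of these, Msgn1, Meox1, Foxc1 and Pcdh19 reached 5 FPKM only in WT libraries, so the filter fixed their sign. With genotype as the only term 2 of 5 were called lower. The 6 presomitic mesoderm genes summed to 22.6 and 14.2 FPKM in the T KO libraries of TS12 and TS13, against 154 and 145 FPKM in the WT ones. Neural progenitor genes summed to 32.8 and 87 FPKM in the T KO libraries, against 20.4 and 24.5 FPKM in the WT ones. The 41 replication genes summed to 2949 and 2891 FPKM in the T KO libraries, against 2982 and 2937 FPKM in the WT ones.

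Between the stages limma called 13 genes higher at TS13 (0.154% of 8438) and 4 lower (0.0474%), and 0 of the 41 replication genes, of which 1 had an unadjusted p under 0.05, as did 8.94% of all genes. That gene was Rpa3, the smallest subunit of replication protein A (chr6:8255936-8259141). Rpa3 had 121 FPKM at TS13 and 78.8 FPKM at TS12 in WT cells, and 115 FPKM at TS13 and 91.4 FPKM at TS12 in T KO cells. The 2 libraries of TS13 thus lay above both of TS12, as for 4 of the 41 in all, against 18.2% of 8438 genes, with a limma difference of 0.47 (SE 0.16, adjusted p 0.392). They lay below both of TS12 for 14 of the 41, among them Mcm5, Rfc4 and Rrm2, against 14% of 8438 genes. In WT cells Rpa3 (0.61) was the 1 member at least 1.5-fold higher at TS13, against 6.44% of all genes, and 0 were lower, against 1.57%. That value was -0.03 when libraries were scaled to the same upper quartile, a scaling that moved the median of all genes to -0.57. In T KO cells 0 members were 1.5-fold higher (3.82% of all genes) or lower (4.23%). The median difference, TS13 minus TS12, was -0.04 in WT cells, against 0.05 over all genes, and -0.03 in T KO cells, against -0.02.

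The Tbx6+ pair at TS14 sets the titled Tbx6 KO library against the titled WT library, with the reservation on its labels given above. The 41 genes had a median difference, titled Tbx6 KO minus titled WT, of -0.04, the same as over 7938 genes. Below 0 lay 26 of the 41, against 54.9% of all genes. Gins3 was the 1 gene at least 1.5-fold lower, with 10.5 FPKM in the titled Tbx6 KO and 17.6 FPKM in the titled WT library (-0.70), against 4.45% of all genes, and 0 were higher, against 6.93%. Rrm2 followed with 121 FPKM in the titled Tbx6 KO and 167 FPKM in the titled WT library (-0.46). At the other end Rpa3 had 81.9 FPKM in the titled Tbx6 KO and 61.5 FPKM in the titled WT library (0.41).

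Other members named above had similar levels in this pair. Cdc6 had 21.4 FPKM in the titled Tbx6 KO and 22.1 FPKM in the titled WT library. Cdt1 had 10.7 FPKM in the titled Tbx6 KO and 12.1 FPKM in the titled WT library, and Mcm5 126 and 127 FPKM in the same order. Gins2 (44.9 and 42.7 FPKM), Pola2 (20.3 and 17.2 FPKM) and Rfc4 (59.1 and 52.7 FPKM) were slightly higher in the titled Tbx6 KO library, and Lig1 (36.8 and 39.9 FPKM) slightly lower.

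Genes of other cell cycle steps lay further below 0 in this pair. Of 30 mitosis genes 29 were lower in the titled Tbx6 KO library, with a median of -0.38, and of 15 G1/S regulators 13 were, with a median of -0.28. Ccne1 had 33.1 FPKM in the titled Tbx6 KO and 52.6 FPKM in the titled WT library (-0.65). Ube2c, which drives mitotic exit, had 21 FPKM in the titled Tbx6 KO and 33.9 FPKM in the titled WT library (-0.67). Aurka, a kinase of the spindle poles, had 39.6 FPKM in the titled Tbx6 KO and 60.9 FPKM in the titled WT library (-0.61). Red cell genes summed to 258 FPKM in the titled Tbx6 KO and 0.81 FPKM in the titled WT library, and presomitic mesoderm genes to 95.3 and 389 FPKM in the same order. Axial progenitor genes summed to 941 and 276 FPKM. Sox2 stood at 42.3 and 4.7 FPKM and T at 471 and 166 FPKM, again in that order, so the 2 libraries differed in cell markers. The part of cell makeup in these differences was not tested.

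Single T+ Sox2+ cells show how far each gene varies from cell to cell. Between 25 and 40 of the 41 genes were at 1 FPKM or more in a cell, with a median of 35. Across the 53 cells 7 genes were detected in every one: Mcm3, Mcm7, Pcna, Rfc1, Lig1, Rrm2 and Dut, the enzyme that keeps uracil out of DNA. Pcna ran from 79.9 to 2053 FPKM with a median of 568 FPKM, and Dut from 92.1 to 627 FPKM with a median of 321 FPKM. At the other end Prim2, the large primase subunit, reached 1 FPKM in 23 cells, Gins3 in 24, Pole2 in 26 and Orc1 in 29. In sparse cells a value of 0 can be a molecule missed in capture.

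**Figure D4:**
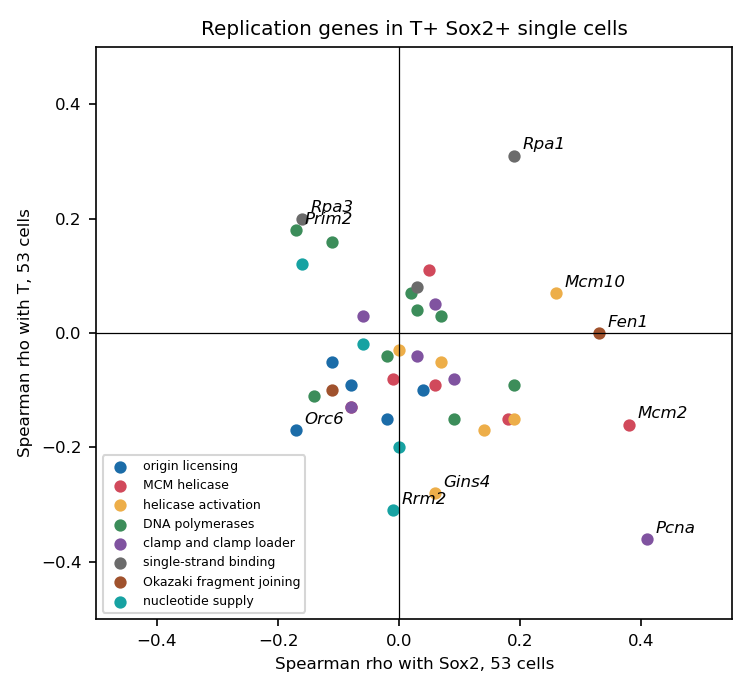
Spearman rho of each of the 41 replication genes with Sox2 (horizontal) and with T (vertical) over 53 single T+ Sox2+ cells, coloured by role. Most genes lie near the centre, Pcna stands lowest right at 0.41 and -0.36, and Rpa1 highest at 0.31 with T.

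Sox2 ran from 0 (in 5 cells) to 77.4 FPKM, with a median of 21.2 FPKM, and T from 35.7 to 888 FPKM, with a median of 311 FPKM. Correlations here only describe these cells, which share library preparation and scaling, and have no p. With Sox2 the median rho over the 41 genes was 0.03, against 0.02 over 7106 genes. Of the 41, 24 were above 0 and 17 below, where 45.9% of all genes were below. With T the median was -0.08, against -0.03 over all genes, and 28 of the 41 were below 0, where 56.5% of all genes were. A rho of at least 0.3 in size was reached by 3 of the 41 with Sox2, against 3.84% of all genes, and by 3 with T, against 4.57%.

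The highest with Sox2 were Pcna (0.41), Mcm2 (0.38), Fen1 (0.33), Mcm10 (0.26) and Pole2 (0.19), a polymerase epsilon subunit. The lowest were Orc6 and Prim2 (both -0.17), Tyms and Rpa3 (both -0.16) and Pola2 (-0.14). With T the lowest were Pcna (-0.36), Rrm2 (-0.31), Gins4 (-0.28), Dut (-0.20) and Orc6 (-0.17), and the highest were Rpa1 (0.31), Rpa3 (0.20), Prim2 (0.18), Pold3 (0.16) and Tyms (0.12). Fen1, 1 of the 2 exceptions above 0 in the sorted fractions, was among the highest with Sox2 in cells, and Rfc5, the other, was not. Without the 5 cells with the fewest genes detected, Fen1 had 0.20 with Sox2. Given the number of genes detected per cell, Pcna had 0.42 with Sox2 and -0.34 with T, and Mcm2 had 0.37 with Sox2. 

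Cells whose titles carry low and high numbers differed in depth of detection, and the relations were not the same in both. The number of genes at 1 FPKM or more had a median of 5500 in the 24 cells titled CS1 to CS24, 6503 in the 23 titled CS25 to CS47 and 4996 in the 6 titled CS90 to CS95. Pcna had medians of 383, 795 and 466 FPKM in the same order. Pcna with Sox2 had a rho of 0.40 in the cells of CS1 to CS24 and 0.06 in those of CS25 to CS47. Mcm2 with Sox2 had 0.33 and 0.06, Fen1 with Sox2 0.53 and -0.07, and Pcna with T -0.45 and 0.09 in the same order. Of the 20 relations named above, 8 had opposite signs in these groups of cells and 12 the same sign. The other turns were Pole2 (0.29 and -0.04) and Tyms (-0.44 and 0.27) with Sox2, and Gins4 (-0.31 and 0.20), Orc6 (0.17 and -0.47), Pold3 (0.36 and -0.24) and Tyms (0.45 and -0.08) with T. Rrm2 with T was below 0 in both, at -0.17 and -0.30, and Rpa1 with T above 0 in both, at 0.25 and 0.24.

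**Figure D5:**
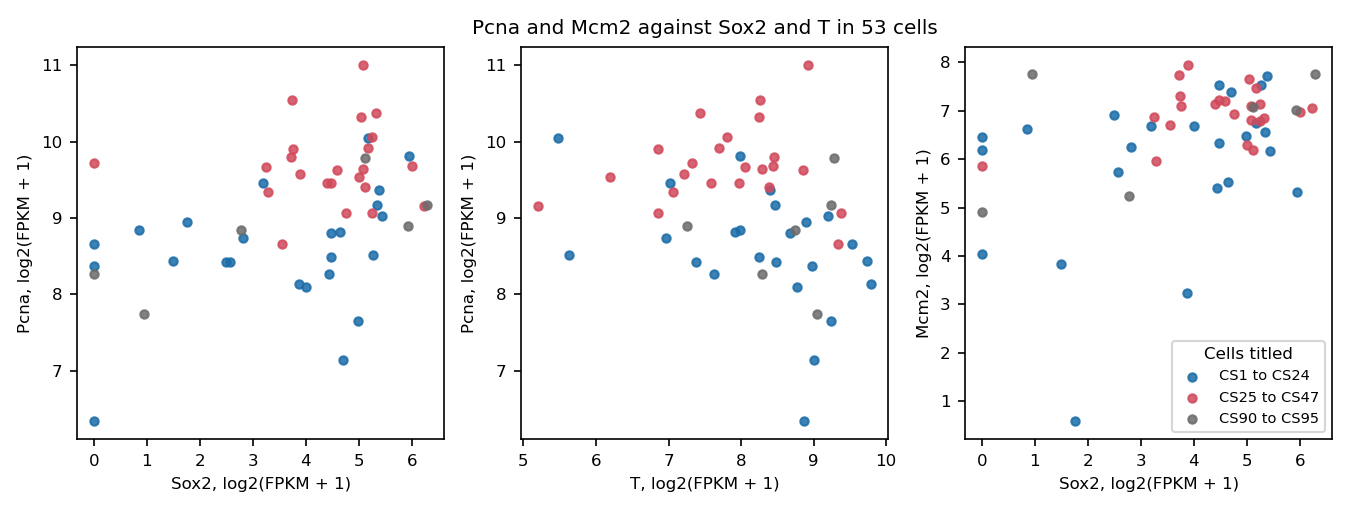
Log2(FPKM + 1) of Pcna against Sox2 (left) and T (middle), and of Mcm2 against Sox2 (right), 1 point per T+ Sox2+ cell, coloured by the number in the cell's title. Cells titled CS25 to CS47 have a Pcna median of 795 FPKM, above the 383 FPKM of those titled CS1 to CS24.

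The 41 genes did not vary together more than other genes did. Over their 820 pairs the median rho was 0.03, as over all pairs of 7106 genes, and 3.05% of the pairs reached 0.3, against 3.13% of all pairs. Pairs of 30 mitosis genes had a median of 0.04, and pairs of a replication and a mitosis gene 0.02. The highest pairs were Gins1 with Pole2 (0.46), Cdc45 with Pcna (0.42) and Orc6 with Prim2 (0.40). Rfc2 with Rfc4, 2 subunits of the clamp loader, stood lowest at -0.37. The mean log2(FPKM + 1) of the 41 genes ran from 3.48 to 5.72 per cell, and its rho with the number of genes detected was 0.87. Its rho was 0.09 with Sox2, -0.15 with T and 0.58 with the mean of the mitosis genes, and the last was -0.03 given the number of genes detected. With T it was 0.41 in the cells titled CS1 to CS24 and -0.15 in those titled CS25 to CS47. With Sox2 it was -0.05 and 0.03 in the same order.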

How the data were processed

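Values were deposited by the authors as FPKM, 1 per gene symbol, in 3 tables for 9 bulk libraries and 53 cells. Per the submitters' processing notes the build was mm10, and the tools named are SAMtools, Picard 1.103, bedtools 2.23.0, Bowtie 1.1.2, TopHat2 2.1.0 and Cufflinks 2.2.1 (Cuffdiff, Cuffnorm). Which annotation was counted, and how libraries were scaled, is not given in the sources used here. Per the labels' protocols the sorted fractions were made with TotalScript from RNA of about 1000 cells and 14 PCR cycles. The libraries of the second table were made with ScriptSeq after ribosomal RNA depletion, from about 20000 cells and with 15 cycles, and the cells on a Fluidigm C1 chip from polyadenylated RNA. Tables were therefore never compared with each other. The tables list the Tyms pseudogene Tyms-ps at 1.72 to 6.39 FPKM, so values of Tyms are uncertain.

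Depth was estimated from the step of low FPKM values times gene length, where 12.2% to 40.4% of the genes searched lay on a whole number of fragments within a relative tolerance of 0.0003. Differences were taken on log2(FPKM + 1) for genes that reached 5 FPKM in either library of a comparison, leaving out small RNAs, predicted genes, rows of several symbols, and T, Sox2 and Tbx6. limma 3.58.1 (R 4.3.3, empirical Bayes with trend, Benjamini-Hochberg adjustment) was fitted to all genes of the 4 T+ libraries. It was tested before use on simulated data with planted differences of 2-fold or more, a trial that does not cover smaller differences. In cells, genes with at least 1 FPKM in at least 20 cells were kept, and Spearman rho was used. Alternatives were pseudocounts of 0.1 and 5, no minimum or 20 FPKM, upper-quartile scaling, centring, and limma without trend or with 1 term. Fits of limma without each library in turn were added, and these also had 1 term only. For cells the alternatives were Pearson r, at least 40 cells, partial rho, and leaving out 5 or 2 cells. A WT reference of the other stage, the split by cell title and the count below 0 were added after seeing the data.

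The genes and lists were chosen with earlier results of these data known. Any of the 41 could be named. Values in every bulk library are given for members at least 1.5-fold apart in a comparison and for the member with the largest difference in each role. Of other lists, genes called by limma or the 3 farthest per list could be named, and in cells the 5 highest and 5 lowest with Sox2 and T, the most and least detected, and the 10 other genes most like the members' mean. Chromatin samples were not analysed here.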

Additional observations from a re-analysis of the deposited data

Results flagged for a closer look

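Orc1, the largest subunit of the origin recognition complex, stood on opposite sides of 0 at the 2 stages by at least 0.2 each time on the log2 scale, the 1 gene of the 41 to do so, as did 8.02% of 7845 genes. Its log2 difference, T KO minus WT, was 0.25 at TS12 and -0.24 at TS13. It had 14.9 FPKM in T KO and 12.4 FPKM in WT cells at TS12, and 9.74 FPKM in T KO and 11.7 FPKM in WT cells at TS13. With 1 library a group the difference between the stages was not tested.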

How the results depend on the processing

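In T+ Sox2+ against Sox2+ cells the median of the 41 genes stayed between -0.33 and -0.28 over 6 alternatives, with 36 to 39 genes below 0. The count at least 1.5-fold lower was 0 with a pseudocount of 5 and 2 with upper-quartile scaling, and in T+ against Sox2+ cells it was 0 with a pseudocount of 5. Upper-quartile scaling left 19 genes below 0 in T+ Sox2+ against T+ cells. It moved every comparison with the WT library of T+ cells at TS12, the library with 20556 genes above 0: the median of all genes became -0.57 both for T KO against WT at TS12 and for TS13 against TS12 in WT. The members' medians became -0.60 and -0.68, with 41 below 0 in each and 23 and 31 at least 1.5-fold lower, so relative to all genes they lay near their reported values. For TS13 against TS12 in WT, Rpa3 became -0.03 with that scaling and 0 genes were 1.5-fold higher. With centring on the median of all genes Rpa3 was 0.56 in that comparison, and 0 genes were 1.5-fold higher there too. A pseudocount of 0.1 gave 1 gene at least 1.5-fold lower at TS13 in T KO cells. The cause of these changes was not tested. For the titled Tbx6 KO the count lower was 0 with a pseudocount of 5 and with a minimum of 20 FPKM, which Gins3 does not reach. In cells titled CS1 to CS24 the median rho with T was 0.05. Of 450 values under alternatives 396 stayed within the limits set (0.1 for a log2 value or rho, 1.5-fold for a count). limma called 0 of the 41 genes in each of 11 alternatives for genotype and 11 for stage. These include fits with each library left out in turn, which also had 1 term only. With 1 term and every library, limma called 3 genes higher and 11 lower over all genes for genotype. For stage it then called 1 higher and 0 lower. No paired analysis was possible because each bulk group has 1 library and so no replicate numbers to pair; limma's stage term does compare T KO with WT within each stage, and without it limma also called 0 of the 41 genes. Counting error was 2.13% to 3.61% for a transcript of 1 kb at the median level of the 41 genes and is larger for lower ones, and the spread between embryos or sorts was not measured.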

Other observations

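Among 7065 other genes in the single cells, the 10 whose rank followed the mean of the 41 replication genes most closely were Nanp (0.67), Spry1 (0.67), Depdc5 (0.63), Knop1 (0.62), Plekha3 (0.61), Zfp142 (0.61), Qrich1 (0.60), Foxo1 (0.60), Arf6 (0.59) and Troap (0.59), as Spearman rho over 53 cells. None of them is on the lists of replication, chromatin assembly, G1/S or mitosis genes used here, and the median over all 7065 genes was 0.16. The further replication genes that passed the filter for cells had a median rho of 0.17 with that mean, and the mitosis genes that passed it 0.12. The mean itself had a rho of 0.87 with the number of genes detected per cell, and the part of that number in these ranks was not tested.

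The inhibitors of cyclin-dependent kinases did not move as a group in the sorted fractions. Of 4 compared between T+ Sox2+ and Sox2+ cells, Cdkn1b stood at 0.60, with 5.09 FPKM in T+ Sox2+ and 3.01 FPKM in Sox2+ cells. Cdkn2d stood at 0.41, with 6.49 and 4.66 FPKM in the same order. Both reached 5 FPKM only in the T+ Sox2+ library of this pair, so the filter fixed their sign. Cdkn1a stood at 0.00, with 15 FPKM in each. Cdkn1c stood at -0.79, with 17 FPKM in T+ Sox2+, 19.9 FPKM in T+ and 30.1 FPKM in Sox2+ cells.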
